A study of Mus musculus with 22 samples.

Results

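The 54 genes described here encode transcription factors of forebrain and cerebellar neurons, and they were followed in the hippocampus, cortex and cerebellum of mice deficient in circTulp4, a circular RNA made from the Tulp4 gene, and of wild-type mice. They were chosen by name from a list of such factors. The rule held no measured value, but earlier results of these data were known when the members were chosen. All 54 were found among the 23037 genes of the deposited count table. The deposited libraries came from 4 circTulp4-deficient (CD) mice, whose splice acceptor site for backsplicing was changed by CRISPR-Cas9, and from 4 wild-type (WT) mice of a line kept on a C57BL/6 background, and age and sex were not given for these mice. RNA from dissected tissue was made into 22 CelSeq2 libraries, which read the 3′ ends of polyadenylated RNA. The hippocampus gave 3 WT and 4 CD libraries, the cortex 4 WT and 4 CD libraries and the cerebellum 4 WT and 3 CD libraries. All labelled libraries were used, which is more per group than the study states for its own comparison. The mutation was constitutive, so each region of a CD mouse carried it, and the tissue pieces held every cell type of the region. In such bulk tissue, fewer cells of a type and less RNA per cell cannot be told apart.

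A transcription factor binds short DNA sequences and sets which genes a cell reads, and many factors that pattern the embryonic brain stay on in the neurons they helped to form. The dorsal forebrain is laid out by Emx1, Emx2 and Lhx2, its excitatory neurons carry Tbr1, Neurod2 and Neurod6, and cortical neurons settle in layers marked by Cux1, Cux2 and Rorb above and by Fezf2, Bcl11b and Foxp2 below. The cerebellum comes from the hindbrain: the engrailed genes set up its territory, granule cells of the rhombic lip express Zic, Pax6 and Barhl genes, and Purkinje cells and GABAergic interneurons depend on Rora, Lhx1, Lhx5 and Pax2. Members were therefore grouped by role, with the caution that 1 factor often serves several cell types.

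Library depth ran from 2760846 to 8858937 counts over genes. Levels are given as cpm, a gene's share of its library in counts, after scaling by the trimmed mean of M-values (TMM) over all 22 libraries. Where 3 values are given for a region, they are the lowest, the median and the highest library, and gene positions are on build GRCm38. The tissue labels were checked with 3 marker lists of 8 genes. Summed hippocampus markers lay between 859 and 1136 cpm in the hippocampus and at most 91.1 cpm elsewhere, cortex markers between 447.8 and 598 cpm in the cortex and at most 123 cpm elsewhere, and cerebellum markers between 6922 and 7713 cpm in the cerebellum and at most 373 cpm elsewhere. Most of the cortex sum was Lamp5, at 316 to 425 cpm in the cortex, and of the 8 cortex markers 5 had their highest median there, 2 in the hippocampus and 1 in the cerebellum. Of 9 brainstem markers, 7 were in the table, and their sum did not exceed 3.65 cpm in any library. The library labelled CD hippocampus of mouse m118 went against its label in the targeted gene: the transcript Tulp4-201, which holds a first exon that is part of circTulp4, had 16 counts (3.98 cpm) more than Tulp4-209, which shares its other exons and spans circTulp4 with an intron, against 2.71 to 3.69 cpm in the WT hippocampus and 0.423 to 0.573 cpm in the other 3 CD hippocampus libraries. In the cortex this excess was 1.45 to 6.02 cpm in WT and 0.141 to 1.29 cpm in CD libraries. In the cerebellum it was 3.12 to 13.6 cpm in WT and 0.599 to 2.61 cpm in CD libraries. The cortex and cerebellum libraries of mouse m118 lay within the CD ranges, at 0.896 and 1.55 cpm. Genotype results in the hippocampus are therefore given with and without the library labelled CD hippocampus of mouse m118.

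RefSeq promoter windows (build GRCm38.p6, 250 bases before to 50 bases after a transcript start) were matched to 45 of the 54 members by symbol, 73 windows in all. They are shown for 3 pairs of members whose levels are compared below: Neurod1 and Neurod6, related bHLH factors highest in different regions, Tbr1 and Eomes, related T-box factors highest in different regions, and Zic1 and Zic4, neighbouring genes both highest in the cerebellum. Capitals mark the E-box letters CANNTG, which bHLH factors recognise, and the letters TAATTA, a core that many homeodomain factors recognise. Both are the same on either strand. The windows lie at chr2:79456587-79456886 (minus strand) for Neurod1, chr6:55681214-55681513 (minus strand) for Neurod6, chr2:61804203-61804502 (plus strand) for Tbr1, chr9:118477939-118478238 (plus strand) for Eomes, chr9:91365719-91366018 (minus strand) for Zic1 and chr9:91368722-91369021 (plus strand) for Zic4.
Neurod1: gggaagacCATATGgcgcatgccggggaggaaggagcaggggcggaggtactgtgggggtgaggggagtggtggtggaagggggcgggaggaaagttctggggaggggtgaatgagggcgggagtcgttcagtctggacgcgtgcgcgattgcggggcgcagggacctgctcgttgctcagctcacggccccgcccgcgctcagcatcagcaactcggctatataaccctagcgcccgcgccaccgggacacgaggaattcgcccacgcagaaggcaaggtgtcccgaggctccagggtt
Neurod6: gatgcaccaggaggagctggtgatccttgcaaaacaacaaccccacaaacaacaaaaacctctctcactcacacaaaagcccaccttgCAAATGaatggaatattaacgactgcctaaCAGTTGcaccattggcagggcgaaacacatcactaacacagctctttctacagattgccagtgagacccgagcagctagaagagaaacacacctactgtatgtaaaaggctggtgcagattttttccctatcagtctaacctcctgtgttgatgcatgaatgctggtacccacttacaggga
Tbr1: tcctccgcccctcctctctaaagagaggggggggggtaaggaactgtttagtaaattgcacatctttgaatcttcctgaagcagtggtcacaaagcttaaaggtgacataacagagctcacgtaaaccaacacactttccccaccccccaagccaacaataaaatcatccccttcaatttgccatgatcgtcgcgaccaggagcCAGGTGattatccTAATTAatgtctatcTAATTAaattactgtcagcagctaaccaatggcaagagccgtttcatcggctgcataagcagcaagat
Eomes: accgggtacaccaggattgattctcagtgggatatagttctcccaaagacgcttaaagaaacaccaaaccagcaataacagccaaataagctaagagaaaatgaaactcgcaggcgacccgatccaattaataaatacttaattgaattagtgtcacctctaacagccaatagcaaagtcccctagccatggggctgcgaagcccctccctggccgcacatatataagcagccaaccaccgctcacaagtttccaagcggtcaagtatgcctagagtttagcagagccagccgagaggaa
Zic1: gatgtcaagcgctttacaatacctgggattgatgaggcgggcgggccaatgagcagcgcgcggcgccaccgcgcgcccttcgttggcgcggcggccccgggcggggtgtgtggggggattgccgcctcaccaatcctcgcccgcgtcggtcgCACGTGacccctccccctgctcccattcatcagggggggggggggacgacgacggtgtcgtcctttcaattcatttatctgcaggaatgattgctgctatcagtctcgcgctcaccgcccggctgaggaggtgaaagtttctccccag
Zic4: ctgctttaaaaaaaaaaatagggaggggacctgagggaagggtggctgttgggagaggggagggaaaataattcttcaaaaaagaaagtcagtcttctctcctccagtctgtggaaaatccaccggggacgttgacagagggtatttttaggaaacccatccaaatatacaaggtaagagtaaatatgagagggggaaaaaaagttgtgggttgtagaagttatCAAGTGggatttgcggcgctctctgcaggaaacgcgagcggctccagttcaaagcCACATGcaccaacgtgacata
CANNTG occurred once in the Neurod1, Tbr1 and Zic1 windows, at 2 places in the Neurod6 and Zic4 windows and at 0 places in the Eomes window. It was found in 65.8% of the 73 member windows and in 72.3% of all 32851 windows. TAATTA occurred at 2 places in the Tbr1 window and at 0 in the other 5, and it was found in 7 member windows (9.59%) and in 5.29% of all windows. The G and C content ran from 46% in the Tbr1 and Zic4 windows to 66.7% in the Neurod1 window. These matches describe letters in the windows and were not tested.

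The members differed far more between the cerebellum and the forebrain than between cortex and hippocampus. A gene was tested if it reached 5 cpm in at least 2 libraries, which 48 of the 54 members did, and was called if its false discovery rate (FDR, Benjamini-Hochberg) was below 0.01 and its fold change above 2 or below 0.5 in edgeR's quasi-likelihood test over all 22 libraries. Between cerebellum and hippocampus 39 members were called, 21 higher and 18 lower in the cerebellum, where 22.8% of the 11137 genes tested were called, 9.76% higher and 13% lower. Between cerebellum and cortex 39 members were again called, 21 higher and 18 lower, against 22.6% of all genes, 9.7% higher and 12.9% lower. Both comparisons use the same cerebellum libraries, so they are not independent. Between cortex and hippocampus 16 members were called, 10 higher and 6 lower in the cortex, against 8.41% of all genes, 4.38% higher and 4.03% lower. The median size of the log2 fold change over the 48 tested members was 3.77 between cerebellum and hippocampus, 3.97 between cerebellum and cortex and 0.74 between cortex and hippocampus, against 0.43, 0.43 and 0.23 over all genes. With members at 3 counts or fewer in every library of a region set to the smallest fold change that 3 counts per library allow, the first 2 medians became 3.58 and 3.73. Over the 54 members, the median level was highest in the cerebellum for 26, in the cortex for 18 and in the hippocampus for 10. The list was assembled from factors known to mark one of these regions, so its shares are not evidence about transcription factors at large. Several members also passed the filter only through the region or regions where they were high and so had to differ.

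**Figure D1:**
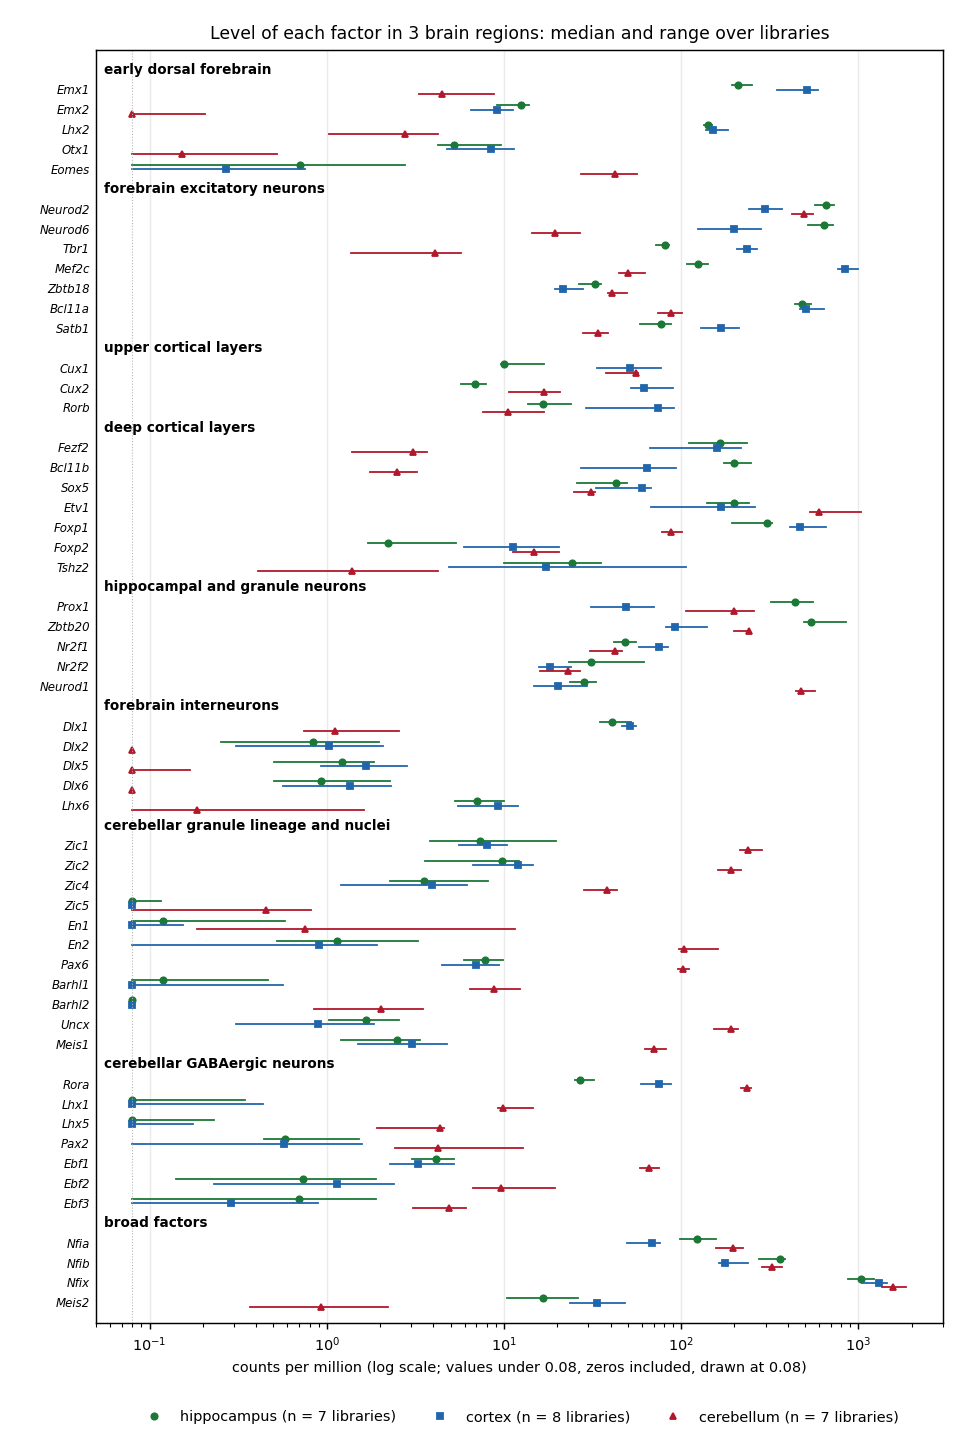
Levels of the 54 factors in cpm on a log axis, with the median (symbol) and range (line) over 7 hippocampus, 8 cortex and 7 cerebellum libraries of both genotypes, in groups by role. The cerebellum (triangles) lies to the left of the forebrain for Emx1, Emx2, Lhx2 and Otx1 and to the right of it for Zic1, Zic2, Zic4, En2, Uncx and Pax6, while cortex (squares) and hippocampus (circles) mostly overlap in these groups.

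Factors of cerebellar granule cells and of the cerebellar nuclei were higher in the cerebellum. Of the 11 members of this group 9 were tested, and 9 of 9 were called higher than in the hippocampus and than in the cortex. Several passed the filter through the cerebellum alone and so had to differ, which makes this count a description. Over all genes tested, 9.76% were called higher than in the hippocampus and 9.7% higher than in the cortex. Uncx, a homeobox gene (chr5:139543865-139548179), lay at a lowest, median and highest 154, 190.5 and 211 cpm in the cerebellum, against 1.03 to 2.56 (median 1.67) cpm in the hippocampus and 0.309 to 1.84 (median 0.895) cpm in the cortex. No cerebellum library overlapped a forebrain library (log2 fold change 7.63 ± 0.17 SE, FDR 7.17e-22 over cortex, and log2 fold change 6.76 ± 0.16 SE, FDR 4.65e-21 over hippocampus, edgeR). En2 (chr5:28165696-28172190), the engrailed gene that stays on in granule cells, lay at 96.7, 103 and 161.9 cpm in the cerebellum, at 0.521 to 3.29 (median 1.14) cpm in the hippocampus and at 0 to 1.93 (median 0.909) cpm in the cortex, again without overlap (edgeR log2 fold change 7.20 ± 0.25 SE, FDR 3.89e-18 over cortex, and 6.52 ± 0.24, FDR 1.76e-17 over hippocampus). Barhl1, a homeobox gene of granule cell precursors, lay at 6.45, 8.81 and 12.3 cpm in the cerebellum, 0 to 0.465 (median 0.119) cpm in the hippocampus and 0 to 0.565 (median 0) cpm in the cortex. No cortex library had more than 3 counts of it, which puts the cerebellum at least 15.2-fold higher than a floor of 3 counts per library.

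The Zic zinc finger genes, which hold granule cells in their identity, were higher in the cerebellum for the 3 that were tested. Zic1 (chr9:91358058-91365768) lay at 216, 238 and 287 cpm in the cerebellum, Zic2 at 161, 192 and 217 cpm and Zic4 at 28.3, 38.1 and 43.4 cpm. In the cortex their ranges were 5.61 to 10.3 (median 8.06), 6.66 to 14.7 (median 12.1) and 1.2 to 6.21 (median 3.92) cpm, and in the hippocampus 3.82 to 19.6 (median 7.33), 3.58 to 12.2 (median 9.73) and 2.28 to 8.14 (median 3.55) cpm. None of the 3 ranges in the cerebellum touched one in the forebrain, and the log2 fold changes over cortex were 4.95 ± 0.25, 4.06 ± 0.15 and 3.20 ± 0.25 (SE). Zic5 did not pass the filter, with 0 to 4 counts per cerebellum library (median 0.456 cpm) and at most 1 count in any forebrain library. Pax6, a paired homeobox gene of granule cells and their precursors, lay at 96.7, 103 and 111 cpm in the cerebellum and at 5.96 to 9.86 (median 7.82) cpm in the hippocampus and 4.49 to 9.41 (median 6.95) cpm in the cortex (3.90 ± 0.12 for cerebellum over cortex). Meis1, a homeobox partner of Pax6 in granule cells, rose from 1.2 to 3.34 (median 2.51) cpm in the hippocampus and 1.51 to 4.75 (median 3.01) cpm in the cortex to 62.7 to 82.5 (median 70.1) cpm in the cerebellum (edgeR log2 fold change 4.55 ± 0.18 SE, FDR 3.60e-17 over cortex). Barhl2 was seen in the cerebellum alone, with 5 to 23 counts per library there (0.848 to 3.49 (median 2.03) cpm) and 0 in each of the 15 forebrain libraries. It did not pass the filter, and its cerebellum level was at least 3.54-fold above the floor of 3 counts per cortex library.

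En1, the engrailed gene that is on before En2 in the embryonic midbrain and hindbrain, split the cerebellum libraries. It lay at 0.184, 0.615, 0.698 and 0.759 cpm in the cerebellum libraries of mice m190, m118, m164 and m162 and at 9.49, 11.3 and 11.5 cpm in those of mice m244, m242 and m240. The values fell into a low set of 4 libraries and a high set of 3, each with both genotypes, and no library lay between 0.759 and 9.49 cpm. In counts the cerebellum libraries held 1 to 91, and no forebrain library held more than 5, with levels of 0 to 0.581 (median 0.119) cpm in the hippocampus and 0 to 0.155 (median 0) cpm in the cortex. En2 followed this split in part. Mice m240 and m244 were highest in En2, at 146 and 161.9 cpm, but mouse m242 lay at 103 cpm, within the 96.7 to 125 cpm of the libraries low in En1. The En1 call over hippocampus was lost without the CD cerebellum library of mouse m242, where the log2 fold change went from 4.85 ± 0.91 to 3.14 ± 1.20 SE and the FDR to 0.0284 (edgeR). Over cortex, where no library had more than 1 count, the cerebellum was at least 8.05-fold above the floor on the mean of its 7 libraries.

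Factors of cerebellar GABAergic neurons were higher in the cerebellum as well. Of the 7 members 6 were tested, and 6 of 6 were called higher than in either forebrain region, again with several that passed the filter through the cerebellum alone. The shares of all genes called higher were 9.76% over hippocampus and 9.7% over cortex. Rora (chr9:68653404-69388246), the orphan nuclear receptor mutated in staggerer mice and needed by Purkinje cells, was separate in all 3 regions, with 218, 235 and 249 cpm in the cerebellum, 59.8, 75.2 and 87.7 cpm in the cortex and 25.1, 27 and 32.2 cpm in the hippocampus. It rose from hippocampus to cortex (edgeR log2 fold change 1.47 ± 0.08 SE, FDR 5.18e-13) and from cortex to cerebellum (log2 fold change 1.61 ± 0.08 SE, FDR 2.40e-15). Lhx1, a LIM homeobox gene of Purkinje cells, had 45 to 94 counts per cerebellum library (9.22, 9.94 and 14.6 cpm) and at most 2 counts in any forebrain library (up to 0.348 cpm in the hippocampus and 0.436 cpm in the cortex). That put the cerebellum at least 22.1-fold above the floor in the hippocampus and 17.3-fold above it in the cortex. Its relative Lhx5 did not pass the filter, with 11 to 35 counts per cerebellum library (1.92 to 4.61 (median 4.37) cpm) and at most 2 in a forebrain library, and lay at least 5.93-fold above the cortex floor. Ebf1, Ebf2 and Ebf3 encode early B cell factors, of which Ebf2 shapes Purkinje cell zones. Their cerebellum levels were 58.9, 66.1 and 75.2 cpm for Ebf1, 6.69, 9.58 and 19.5 cpm for Ebf2 and 3.05, 4.92 and 6.13 cpm for Ebf3, without overlap with the forebrain libraries. In the hippocampus they lay at 3.02 to 5.21 (median 4.13), 0.142 to 1.89 (median 0.738) and 0 to 1.89 (median 0.695) cpm and in the cortex at 2.28 to 5.26 (median 3.28), 0.23 to 2.39 (median 1.14) and 0 to 0.898 (median 0.29) cpm. The fold changes of cerebellum over cortex were 4.23 ± 0.14, 3.40 ± 0.34 and 4.20 ± 0.50 (log2, SE). Pax2, a marker of GABAergic interneuron precursors, lay at 2.43 to 12.9 (median 4.24) cpm in the cerebellum, 0.443 to 1.52 (median 0.581) cpm in the hippocampus and 0 to 1.58 (median 0.574) cpm in the cortex, and its highest value came from the WT library of mouse m244. The next highest was 5.74 cpm in the CD library of mouse m118, and without either library, with WT libraries alone or with sums over distinct transcripts Pax2 no longer passed the filter and was not tested.

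Early factors of the dorsal forebrain were higher in cortex and hippocampus, with 1 exception. Of 5 members 4 were called lower in the cerebellum in both comparisons, and Eomes was called higher. Emx2, Lhx2, Otx1 and Eomes passed the filter only through the side where they were high and so had to differ, which makes these counts a description. Over all genes tested, 13% were called lower and 9.76% higher in the cerebellum than in the hippocampus. Against the cortex these shares were 12.9% and 9.7%. Emx1 (chr6:85187931-85204463), an empty spiracles homeobox gene, lay at 346, 516 and 594 cpm in the cortex, 193, 209 and 252 cpm in the hippocampus and 3.31, 4.46 and 8.81 cpm in the cerebellum, 3 ranges that did not touch (edgeR log2 fold change -6.53 ± 0.17 SE, FDR 8.57e-21 for cerebellum over cortex, and -5.31 ± 0.16, FDR 3.11e-19 over hippocampus). Its relative Emx2 lay at 9.15 to 13.9 (median 12.4) cpm in the hippocampus and 6.54 to 11.3 (median 9.14) cpm in the cortex and reached 0 to 0.205 (median 0) cpm in the cerebellum. It had 51 to 107 counts per hippocampus library, 23 to 84 per cortex library and 0 to 1 per cerebellum library, so the hippocampus was at least 22.8-fold and the cortex at least 17.8-fold above the cerebellum floor. Lhx2, a LIM homeobox selector gene of the cortex, lay at 136 to 149 (median 143) cpm in the hippocampus and 137.8 to 184 (median 151) cpm in the cortex, which overlapped, and at 1.02 to 4.24 (median 2.76) cpm in the cerebellum (edgeR log2 fold change -5.94 ± 0.16 SE, FDR 3.21e-20 over cortex, and -5.81 ± 0.16, FDR 6.21e-20 over hippocampus). Otx1, expressed in deep cortical neurons, lay at 4.26 to 9.61 (median 5.23) cpm in the hippocampus, 4.75 to 11.4 (median 8.44) cpm in the cortex and 0 to 0.523 (median 0.152) cpm in the cerebellum. It was at least 10.9-fold higher in the hippocampus and 15.8-fold higher in the cortex than the cerebellum floor. With sums over distinct transcripts Otx1 no longer passed the filter, and its call ended in both comparisons. Eomes (chr9:118478186-118486132), also called Tbr2, marks intermediate progenitors of the embryonic cortex and, in the adult cerebellum, unipolar brush cells. It lay at 27.1, 42.6 and 56.7 cpm in the cerebellum and at 0 to 2.75 (median 0.71) cpm in the hippocampus and 0 to 0.75 (median 0.27) cpm in the cortex (edgeR log2 fold change 7.14 ± 0.37 SE, FDR 1.14e-14 for cerebellum over cortex, and 5.26 ± 0.31, FDR 1.52e-13 over hippocampus).

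Of the Dlx genes and Lhx6, which direct forebrain interneurons, 2 of 5 could be tested. Dlx1 and Lhx6 passed the filter and were called lower in the cerebellum in both comparisons. They passed it through forebrain libraries alone and so had to differ, which makes these calls a description. Over all genes tested, 13% were called lower in the cerebellum than in the hippocampus and 12.9% lower than in the cortex. Dlx1 lay at 35 to 52 (median 40.9) cpm in the hippocampus, 46.6 to 55.8 (median 51.2) cpm in the cortex and 0.748 to 2.54 (median 1.11) cpm in the cerebellum, and Lhx6 at 5.33 to 10.1 (median 7.08), 5.51 to 12 (median 9.29) and 0 to 1.62 (median 0.186) cpm. Dlx2, Dlx5 and Dlx6 did not pass: their medians were 0.836, 1.22 and 0.93 cpm in the hippocampus and 1.02, 1.67 and 1.36 cpm in the cortex. Their forebrain libraries held 1 to 17 counts, and their cerebellum libraries held 0 counts of Dlx2 and Dlx6 and at most 1 of Dlx5. Cortex and hippocampus overlapped for each of the 5 genes.

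Between cortex and hippocampus, the 10 members called higher in the cortex were Cux2, Mef2c, Cux1, Foxp2, Rorb, Tbr1, Rora, Emx1, Satb1 and Meis2. All 3 upper-layer factors were among them. Over all genes tested, 4.38% were called higher in the cortex. Cux2 (chr5:121857962-122050415), a cut-like homeobox gene of upper-layer neurons, lay at 52.4, 61.5 and 90.3 cpm in the cortex and 5.75, 6.87 and 7.95 cpm in the hippocampus, with a gap between the ranges (edgeR log2 fold change 3.26 ± 0.16 SE, FDR 2.17e-14). Cux1 lay at 33.3, 51.7 and 76.8 cpm in the cortex and 9.61, 10.1 and 16.9 cpm in the hippocampus, also without overlap (log2 fold change 2.14 ± 0.19 SE, FDR 1.90e-09). Rorb, the nuclear receptor of layer 4 neurons, lay at 29.2, 74.2 and 91.5 cpm in the cortex and 13.7, 16.7 and 23.8 cpm in the hippocampus (log2 fold change 1.94 ± 0.21 SE, FDR 5.22e-08). Its lowest cortex library, CD of mouse m118, stood close to the highest hippocampus library, which came from the same mouse. Mef2c (chr13:83504017-83667079), a MADS box factor that tunes excitatory synapse number, lay at 766, 839 and 993 cpm in the cortex and 107, 124 and 142 cpm in the hippocampus and was higher in the cortex of 7 of 7 mice with both regions, while the cerebellum held 44.5 to 62.5 (median 50) cpm (log2 fold change 2.75 ± 0.09 SE, FDR 9.64e-18 for cortex over hippocampus). Tbr1, the T-box factor of early-born cortical neurons, lay at 207, 237 and 269 cpm in the cortex and 72.3, 81.1 and 85.3 cpm in the hippocampus without overlap (log2 fold change 1.57 ± 0.12 SE, FDR 2.08e-10). Foxp2, a forkhead factor of layer 6 and of Purkinje cells, lay at 5.97, 11.3 and 20.5 cpm in the cortex and 1.7, 2.21 and 5.35 cpm in the hippocampus (log2 fold change 2.01 ± 0.26 SE, FDR 8.44e-07). Satb1, a chromatin organiser, lay at 129, 168 and 212 cpm in the cortex, 58.8, 77.1 and 88.1 cpm in the hippocampus and 27.9, 34 and 38.5 cpm in the cerebellum. Meis2, a homeobox factor of striatal and other forebrain neurons, lay at 23.7, 33.7 and 48.2 cpm in the cortex and 10.5, 16.5 and 26.1 cpm in the hippocampus, which overlapped. Satb1 and Meis2 had smaller changes of 1.16 ± 0.10 and 1.05 ± 0.16 (log2, SE). The fold change of Meis2 fell below 2 without the CD cortex library of mouse m118, at 0.98 ± 0.16, without the CD hippocampus library of mouse m190, at 0.99 ± 0.16, and with mouse as a replicate block, at 0.999 ± 0.161.

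The 6 members called higher in the hippocampus were Prox1, Zbtb20, Bcl11b, Neurod6, Neurod2 and Nr2f2. Prox1 (chr1:190118035-190170827), the prospero homeobox gene that fixes dentate granule cell identity, lay at 322, 441 and 557 cpm in the hippocampus and 31.1, 48.8 and 70.2 cpm in the cortex, and the cerebellum lay between them at 107, 199.6 and 258 cpm. The hippocampus did not overlap either (log2 fold change -3.26 ± 0.17 SE, FDR 7.07e-14 for cortex over hippocampus, edgeR). Zbtb20 (chr16:42875689-43634392), a zinc finger repressor that specifies hippocampal pyramidal neurons, showed the same order, with 495, 538 and 857 cpm in the hippocampus, 198, 240.4 and 246 cpm in the cerebellum and 82.5, 91.8 and 139.6 cpm in the cortex (log2 fold change -2.63 ± 0.12 SE, FDR 8.50e-15). Bcl11b, also called Ctip2, marks corticospinal neurons of layer 5 but also CA1 and dentate neurons. It lay at 176, 199 and 249 cpm in the hippocampus, 27.1, 64.6 and 93.7 cpm in the cortex and 1.74, 2.5 and 3.22 cpm in the cerebellum, and the regions did not overlap (log2 fold change -1.74 ± 0.16 SE, FDR 4.82e-09 for cortex, and -6.34 ± 0.24, FDR 3.08e-17 for cerebellum, over hippocampus). Bcl11b passed the filter through forebrain libraries alone and so had to differ from the cerebellum. Neurod6, a bHLH factor of pyramidal neurons, lay at 523, 637 and 724 cpm in the hippocampus and 125, 198 and 283 cpm in the cortex (log2 fold change -1.66 ± 0.14 SE, FDR 1.05e-09), and Neurod2 at 571, 656 and 728 cpm in the hippocampus and 243, 296 and 373 cpm in the cortex (log2 fold change -1.11 ± 0.09 SE, FDR 1.55e-10). Nr2f2, or COUP-TFII, a nuclear receptor of caudal forebrain neurons, lay at 23.3, 31.2 and 61.5 cpm in the hippocampus, 15.9, 18.2 and 23.9 cpm in the cortex and 16.1, 22.9 and 27 cpm in the cerebellum. The call of Nr2f2, at -1.09 ± 0.19, was lost under 4 alternatives: the value was -0.997 with sums over distinct transcripts, -1.03 ± 0.26 (FDR 0.0101) with WT libraries alone, -0.85 ± 0.18 without the WT hippocampus of mouse m244, and -0.97 ± 0.19 without the CD hippocampus of mouse m242. Eomes (-1.88 ± 0.63, FDR 0.0216) was not called, and it passed both thresholds in DESeq2 (-1.95 ± 0.64, FDR 0.00809), without the filter on low counts (-1.87 ± 0.43) and without the WT hippocampus of mouse m162 (-2.14 ± 0.55). Nfia passed them without the WT hippocampus of mouse m240 (-1.006), and Uncx without the WT cortex of mouse m164 (-1.16 ± 0.30).

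**Figure D2:**
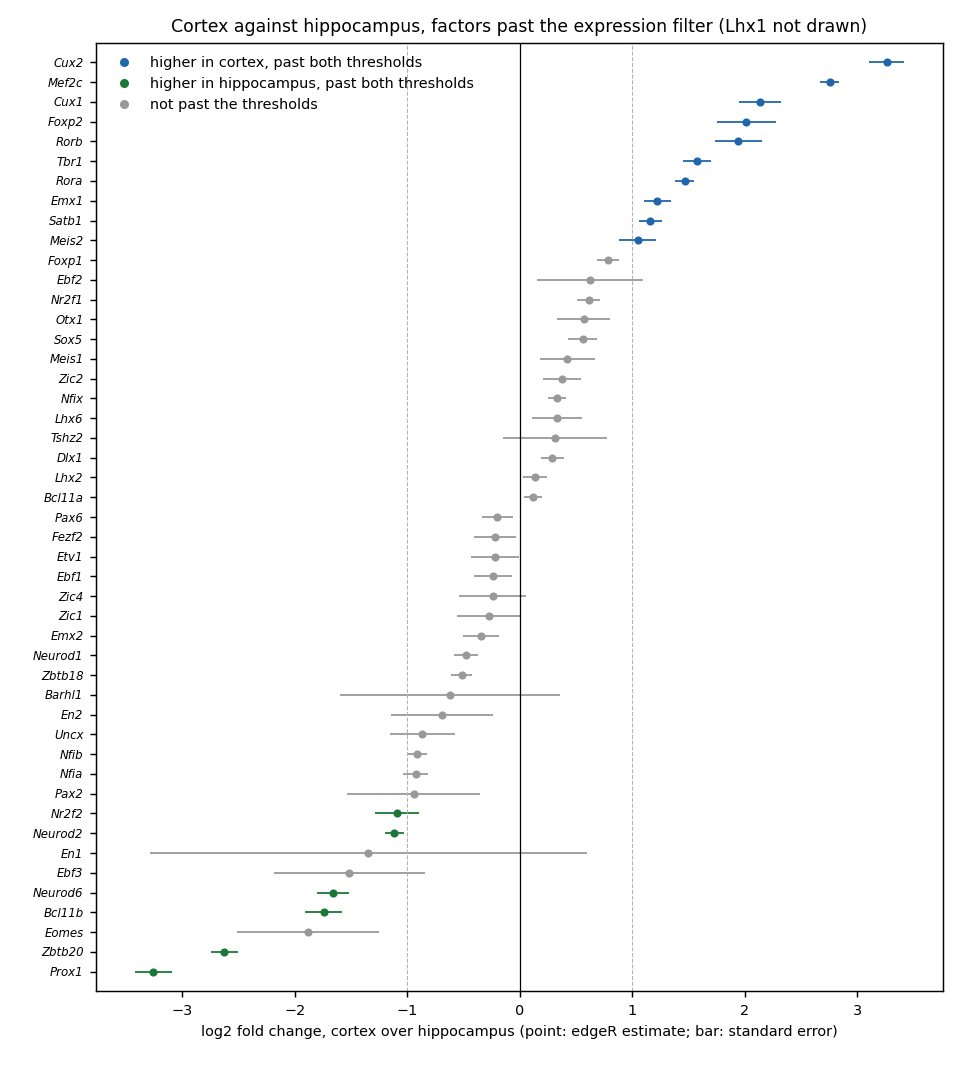
Log2 fold change of cortex over hippocampus (point) with its standard error (bar) from edgeR for the factors past the expression filter other than Lhx1, which had at most 2 counts per library in both regions, with dashed lines at a fold change of 2 in either direction. The 10 members called higher in the cortex reach up to Cux2 and the 6 called higher in the hippocampus down to Prox1.

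Several relatives within a family were highest in different regions. Neurod1 (chr2:79452637-79456636), a bHLH factor of granule neurons in both dentate gyrus and cerebellum, lay at 446, 476 and 572 cpm in the cerebellum and at 23.5 to 33 (median 28.3) cpm in the hippocampus and 14.8 to 29.5 (median 20.1) cpm in the cortex, whereas Neurod6 fell to 14.5 to 26.9 (median 19.4) cpm in the cerebellum. Neurod1 was higher and Neurod6 lower in the cerebellum than in the hippocampus, with log2 fold changes of 4.11 ± 0.11 and -4.96 ± 0.18 SE. Neurod2, at 422 to 555 (median 496) cpm in the cerebellum, differed less, at -0.41 ± 0.09, under the fold threshold. Meis1 and Meis2 were opposed in the same way, with 4.55 ± 0.18 and -5.07 ± 0.24 for cerebellum over cortex, and Meis2 lay at 0.368 to 2.2 (median 0.929) cpm in the cerebellum. Eomes and Tbr1 were opposed too, since Tbr1 lay at 1.37 to 5.76 (median 4.09) cpm in the cerebellum (edgeR log2 fold change -6.15 ± 0.18 SE, FDR 6.95e-20 over cortex). Rora was highest in the cerebellum, and Rorb was highest in the cortex, and its cerebellum libraries held 7.58 to 16.9 (median 10.5) cpm (-2.65 ± 0.22 for cerebellum over cortex). Cux1, at 37.7, 55.4 and 56.9 cpm in the cerebellum, overlapped the cortex libraries (0.02 ± 0.17, FDR 0.923), while Cux2, at 10.7 to 20.6 (median 16.9) cpm, was lower in the cerebellum than in the cortex (-2.09 ± 0.14). Cux1 and Cux2 were both called higher in the cerebellum than in the hippocampus, at 2.16 ± 0.19 and 1.17 ± 0.17. Bcl11a, a partner of Bcl11b in projection neurons, was not called between cortex and hippocampus (0.12 ± 0.08, FDR 0.25), at 470.0 to 637 (median 509.7) cpm and 442 to 542 (median 484) cpm, and was lower in the cerebellum, at 74.3 to 101 (median 87.5) cpm (-2.60 ± 0.08 over cortex). Meis1, Meis2 and Eomes passed the filter only through the side where they were high and so had to differ, which makes their directions a description. Each of these values is a separate test of 1 gene, and the difference between relatives was not itself tested.

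**Figure D3:**
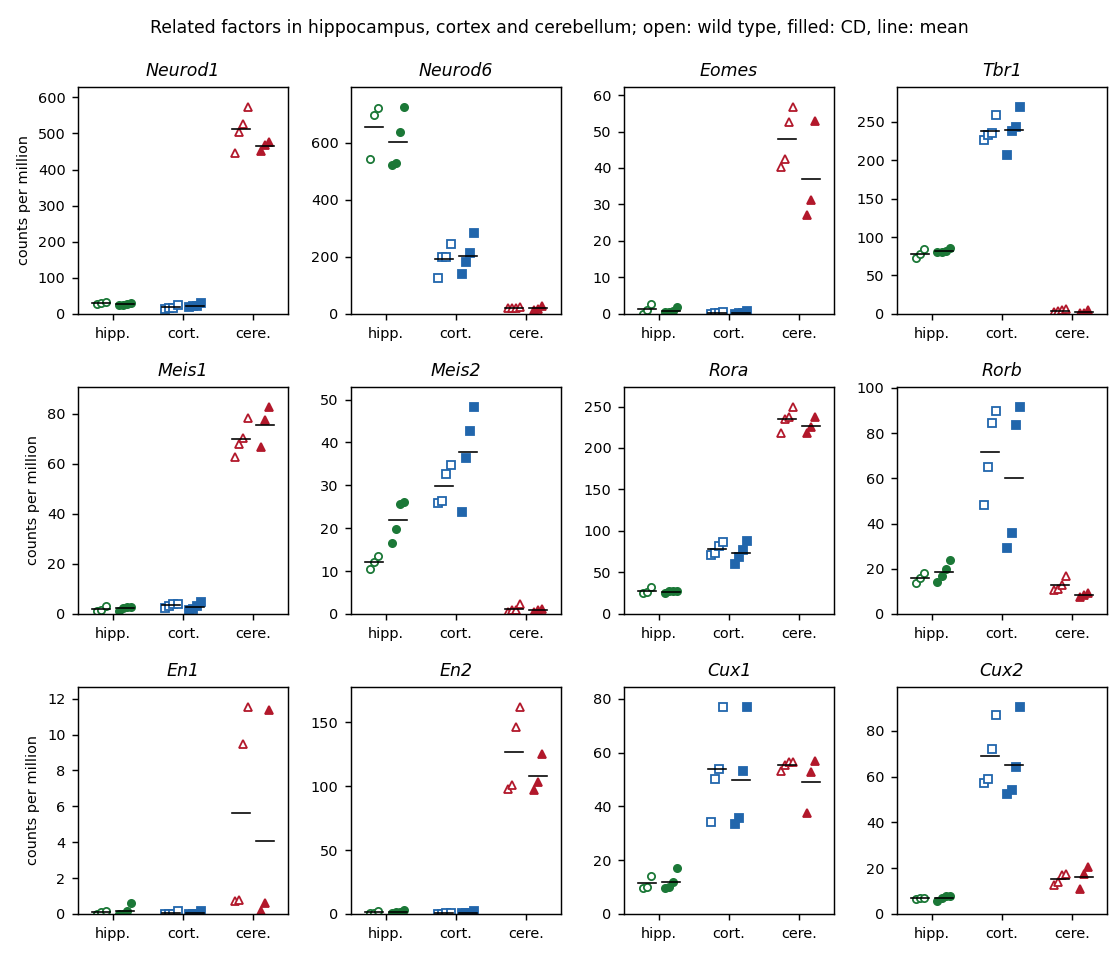
Level in cpm of 12 related factors in each library, by region (abbreviated hipp., cort. and cere.) and genotype, with open symbols for WT, filled symbols for CD and a line at the group mean. Neurod1, Eomes, Meis1, Rora and En2 are highest in the cerebellum and Neurod6, Tbr1, Meis2 and Rorb in the forebrain, and the cerebellum libraries of En1 fall into a high and a low set that both hold WT and CD mice.

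Deep-layer factors did not form 1 pattern. Of the 7 members, 1 was called higher in the cortex than in the hippocampus (Foxp2), 1 lower (Bcl11b) and 5 were not called. Over all genes tested, 4.38% were called higher and 4.03% lower. Fezf2, the zinc finger selector of layer 5 projection neurons, lay at 66.5, 159 and 219 cpm in the cortex and 112, 167 and 235 cpm in the hippocampus (-0.22 ± 0.19), and at 1.4 to 3.69 (median 3.07) cpm in the cerebellum (edgeR log2 fold change -5.84 ± 0.28 SE, FDR 2.97e-15 for cerebellum over hippocampus). Etv1, an ETS factor of layer 5 neurons that granule cells also express, was higher in the cerebellum, at 531, 603 and 1042 cpm, than in the hippocampus, at 140.0, 199 and 242.1 cpm, or the cortex, at 67.7, 168 and 262 cpm (1.81 ± 0.22 and 2.03 ± 0.21). The highest cerebellum value of Etv1 came from the WT library of mouse m244, and the next was 669.7 cpm. Foxp1 lay at 409.8, 471 and 654 cpm in the cortex, 194, 304 and 324 cpm in the hippocampus and 77.6, 88.2 and 101 cpm in the cerebellum, and Foxp2, at 11.2, 14.8 and 20.3 cpm in the cerebellum, overlapped the cortex (0.44 ± 0.22, FDR 0.0814). Sox5, an HMG box factor of subplate and layer 6 neurons, lay at 33 to 67.4 (median 60.1) cpm in the cortex, 26 to 49.3 (median 43) cpm in the hippocampus and 25 to 32.8 (median 31.1) cpm in the cerebellum and was not called. Tshz2 lay at 9.97 to 35.1 (median 24.3) cpm in the hippocampus and 0.41 to 4.24 (median 1.4) cpm in the cerebellum (-4.14 ± 0.65 for cerebellum over cortex). Fezf2, Bcl11b and Tshz2 passed the filter through forebrain libraries alone and so had to differ from the cerebellum, which makes these differences a description.

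Sox5, Nfib, Nfix, Nr2f1 and Zbtb18 were tested and not called in any of the 3 region comparisons. The nuclear factor I genes, which act in glia as well as in neurons, were present throughout, with 870.2 to 1235 (median 1030.0), 1051 to 1449 (median 1307) and 1370.0 to 1861 (median 1575) cpm for Nfix in hippocampus, cortex and cerebellum. Nfib lay at 274 to 386 (median 364), 163.6 to 238 (median 178) and 285 to 369 (median 326) cpm and Nfia at 98.6 to 158 (median 123), 49.4 to 76.4 (median 68.9) and 158 to 222 (median 196) cpm in the same order. The FDR of Nfib was 6.12e-09 between cortex and hippocampus at a log2 fold change of -0.91 ± 0.09, so it missed the fold threshold and not the FDR threshold. Nfia passed both between cerebellum and cortex, at 1.53 ± 0.11. Nr2f1, the COUP-TFI receptor that sets cortical areas, lay at 57.6 to 84.4 (median 75.5) cpm in the cortex, 42 to 55.8 (median 48.1) cpm in the hippocampus and 30.6 to 46.3 (median 42.6) cpm in the cerebellum (0.61 ± 0.10 for cortex over hippocampus). Zbtb18, a zinc finger repressor needed for cortical neuron maturation, lay at 19.5 to 28.1 (median 21.6), 26.5 to 35.5 (median 32.9) and 38.9 to 49.5 (median 40.5) cpm in the same order (-0.52 ± 0.09). With WT libraries alone, Zbtb18 passed both thresholds for cerebellum over cortex, at 1.004 against 0.91 ± 0.09 over all libraries.

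The cortex libraries differed among themselves in factors of layers and areas, across both genotypes. Fezf2 was lowest in WT mouse m244 and CD mouse m242, at 66.5 and 68.3 cpm, and lay between 120.3 and 219 cpm in the other 6. The same 2 libraries were lowest in Etv1, at 67.7 and 89 cpm against 108 to 262 cpm. They were also lowest in Bcl11b, at 27.1 and 35.7 cpm against 61.5 to 93.7 cpm. The upper-layer factors ran the other way in these libraries: Cux1 was highest in them, at 76.8 and 76.8 cpm against 33.3 to 53.8 cpm, and so was Cux2, at 87.2 and 90.3 cpm against 52.4 to 72.2 cpm. Of the other deep-layer factors, Sox5 and Foxp2 were lowest in these 2 libraries too, and Foxp1 was not. Foxp1 was highest in CD mouse m242, at 654 cpm, and lay at 449 cpm in WT mouse m244, within the 409.8 to 511 cpm of the other 6. Tshz2, a teashirt zinc finger gene strong in retrosplenial cortex, had a cortex median of 17.4 cpm and ran from 4.87 cpm in CD mouse m242 and 5.17 cpm in WT mouse m244 to 56 cpm in WT mouse m162 and 107 cpm in CD mouse m118. Rorb was lowest in CD mice m118 and m138, at 29.2 and 35.8 cpm, and highest in CD mouse m242, at 91.5 cpm. The libraries of mice m244 and m242 were the shallowest and the deepest of the 8 cortex libraries, with 2760846 and 8646689 counts.

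**Figure D4:**
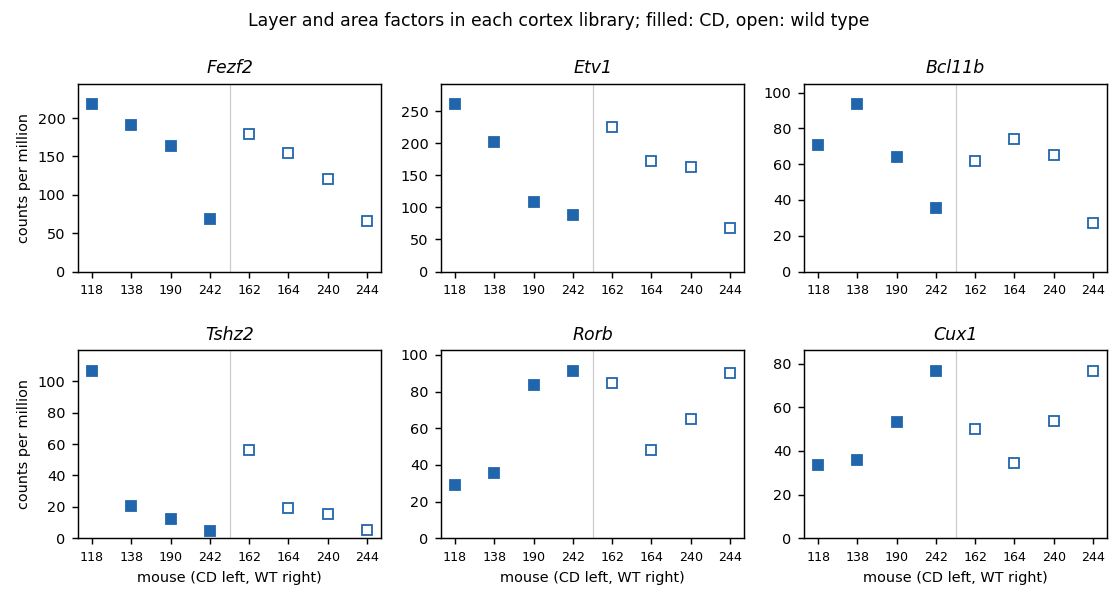
Level in cpm of 6 layer and area factors in each of the 8 cortex libraries, named by mouse, with CD (filled) left of the line and WT (open) right of it. Mice m242 and m244, 1 of each genotype, are lowest in Fezf2, Etv1, Bcl11b and Tshz2 and highest in Cux1.

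In the hippocampus, Zic1, Zic4 and Nr2f2 varied between libraries of the same genotype. Zic1 lay at 19.6 cpm in WT mouse m244 and 17.6 cpm in CD mouse m138 and between 3.82 and 7.67 cpm in the other 5 libraries. Zic4 was highest in the same 2 libraries, at 7.9 and 8.14 cpm, followed by 6.34 cpm in CD mouse m190. Nr2f2 lay at 61.5, 61 and 52.8 cpm in mice m244, m242 and m138 and between 23.3 and 31.2 cpm in the other 4. Choroid plexus markers varied in the hippocampus too: the sum of 7 genes, most of it Ttr, was 134 to 8313 cpm, and Ttr alone was highest in mice m244 and m190, at 8144 and 4113 cpm, followed by 1183 cpm in mouse m138. Meninges markers varied as well, with a sum of 8 genes at 93.1 to 243 cpm. Among them, Dcn was highest in mice m242 and m138, at 47 and 43.4 cpm. It lay at 10.5 to 25 cpm in the other libraries, with mouse m244 at 17.5 cpm. The part of either tissue in the values of Zic1, Zic4 and Nr2f2 was not tested.

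Related factors that are no members also differed by region, with exceptions. Both lists were chosen with earlier results of these data known, so their counts are a description. Over all genes tested, 22.8% were called between cerebellum and hippocampus, 22.6% between cerebellum and cortex and 8.41% between cortex and hippocampus. Of 25 other forebrain transcription factors 19 were tested. Of these, 2 were called higher and 9 lower in the cerebellum than in the hippocampus, 1 higher and 11 lower than in the cortex, and 4 higher and 4 lower in the cortex than in the hippocampus. The LIM-only gene Lmo3 was lower in the cerebellum than in the cortex (log2 fold change -4.91 ± 0.24 SE), and Zfpm2, a GATA cofactor, was higher (2.45 ± 0.21). Of 25 other cerebellar factors 23 were in the table and 16 tested. Of these, 10 were called higher and 2 lower in the cerebellum than in the hippocampus and than in the cortex, and 3 were called higher and 3 lower in the cortex than in the hippocampus. Tfap2b, an AP-2 factor of cerebellar GABAergic lineages, was higher by 4.74 ± 0.20 in the cerebellum over the cortex.

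Whether lowered circTulp4 changed these factors was asked in each region. The paper reports that CD brains keep some circTulp4, made from a cryptic acceptor site, so a full loss was not compared. No member passed an FDR of 0.01 with a fold change above 2 in edgeR: 0 of the 36 tested hippocampal, 0 of 37 cortical and 0 of 39 cerebellar members, where 0%, 0% and 0% of all genes were called. DESeq2 called 0 members in each region as well. At an unadjusted p below 0.05, 5 members were found in the hippocampus, all higher in CD, 0 in the cortex and 4 in the cerebellum, all lower in CD. The shares of all genes under that limit were 4.22%, 3.3% and 4.55%. CD and WT libraries did not overlap for 3 members tested in hippocampus, 0 in cortex and 3 in cerebellum, set beside 5.44%, 2.54% and 5.33% of all genes. Fold changes of the tested members ran from -0.16 to 0.86 (log2) in the hippocampus, from -0.25 to 0.48 in the cortex and from -0.68 to 0.20 in the cerebellum, and their medians were 0.08, 0.02 and -0.09.

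In the hippocampus, Meis2 lay at 10.5, 12.2 and 13.6 cpm in WT and 16.5, 19.7, 25.7 and 26.1 cpm in CD mice. The groups did not overlap, the highest CD value came from the library labelled CD of mouse m118, and the log2 fold change was 0.86 ± 0.19 SE (edgeR FDR 0.998). Without that library it was 0.79 ± 0.19. Etv1 lay at 140.0, 141 and 188 cpm in WT and 199, 231, 238 and 242.1 cpm in CD mice, again apart, with 0.54 ± 0.13 (FDR 0.998) and 0.52 ± 0.14 without the library of mouse m118. Fezf2 lay at 112, 153 and 167 cpm in WT and 167, 174, 218 and 235 cpm in CD mice. The highest WT and lowest CD library of Fezf2 differed by less than 1 cpm, and its fold change was 0.47 ± 0.16 with and 0.55 ± 0.16 without mouse m118. Sox5 and Zic2 were the other 2 members under the unadjusted limit, at 0.47 ± 0.17 and 0.72 ± 0.29, and at 0.42 ± 0.18 and 0.78 ± 0.30 without mouse m118. Each of the 5 had an FDR of 0.998 with and without mouse m118, and leaving that library out kept the number called at 0.

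In the cerebellum, Foxp2 lay at 14.8, 18.4, 18.7 and 20.3 cpm in WT and 11.2, 11.9 and 13 cpm in CD mice (-0.58 ± 0.16, edgeR FDR 0.981). Rorb lay at 10.5, 11, 12.8 and 16.9 cpm in WT and 7.58, 8.48 and 9.23 cpm in CD mice (-0.59 ± 0.21), and Uncx at 190.5, 193, 199 and 211 cpm in WT and 154, 166 and 179 cpm in CD mice (-0.25 ± 0.10). Every CD library lay below every WT library for these 3 genes. Zic4 was the fourth member under the unadjusted limit, at -0.28 ± 0.13, and each of the 4 had an FDR of 0.981. Foxp2 and Rorb lay at 5.97 to 20.5 and 29.2 to 91.5 cpm in the cortex, where their CD over WT fold changes were 0.44 ± 0.32 and -0.25 ± 0.31. The largest change in the cortex was that of Tshz2, at 0.48 ± 0.73, a gene whose values in CD and WT libraries overlapped over most of their range. Pituitary markers, of which 4 of 5 were in the table, summed to 1.59 to 13.3 cpm in WT libraries. In CD libraries they ran from 2.21 to 126 cpm in the hippocampus, 3.59 to 86.5 cpm in the cortex and 2.00 to 95.9 cpm in the cerebellum, and the highest value of each region, mostly Gh and Prl, came from mouse m190 or mouse m118. Their part in the genotype values was not tested.

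**Figure D5:**
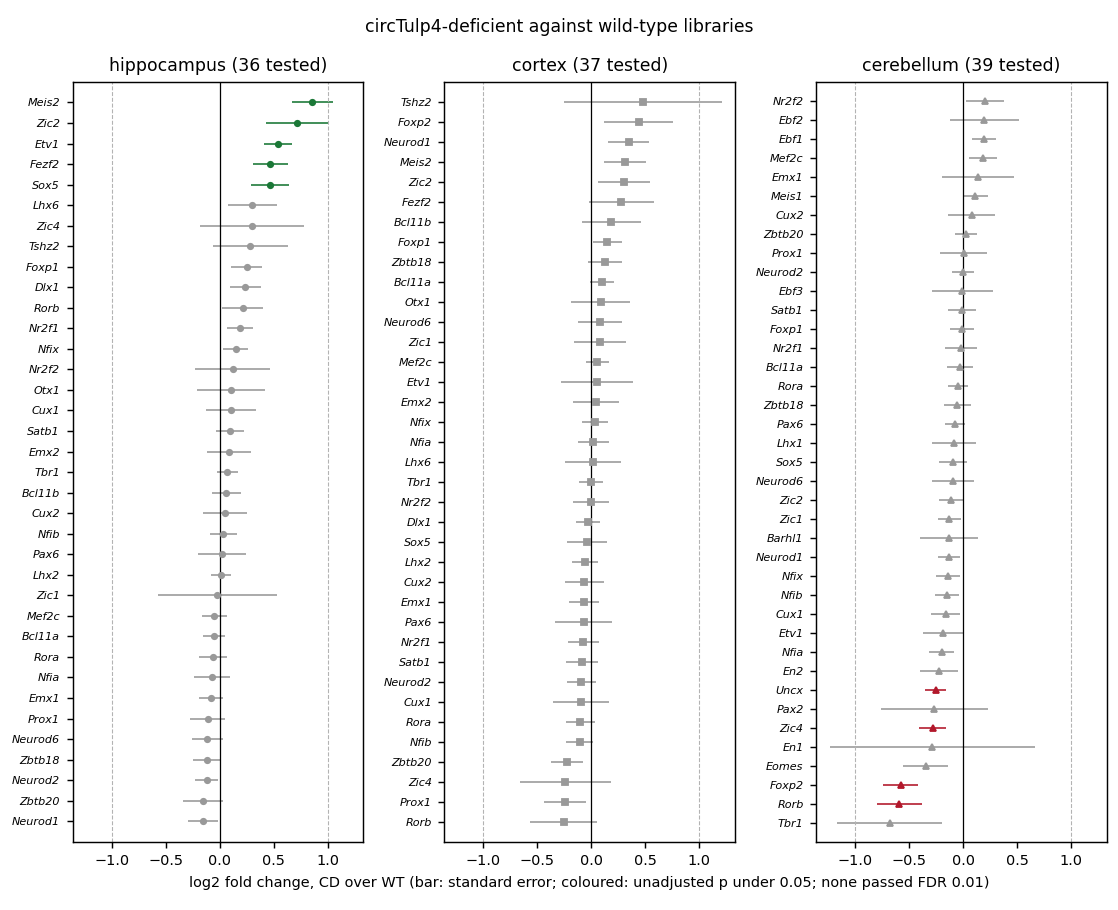
Log2 fold change of CD over WT libraries (symbol) with its standard error (bar) from edgeR for the members tested in each region, with dashed lines at a fold change of 2. Coloured symbols mark the 5 members in the hippocampus and 4 in the cerebellum with an unadjusted p below 0.05, and no member passed the FDR threshold in any region.

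Over the 3 regions together, with mouse as a block in limma, 0 of 48 members were called (0% of all genes), and 2 members had an unadjusted p below 0.05, against 3.58% of all genes. They were Lhx1, at -1.05 ± 0.40, and Zic2, at 0.37 ± 0.14, both with an FDR of 0.9997. The Lhx1 value came from forebrain libraries with 0 to 2 counts, where 4 WT libraries and 0 CD libraries held any, and the cerebellum libraries overlapped at 9.29, 9.94, 10 and 14.6 cpm in WT and 9.22, 9.77 and 11.7 cpm in CD mice. The genotype by region interaction, which asks whether the CD effect differs between regions, called 0 of 48 members at an FDR of 0.05 in edgeR (0% of all genes). At an unadjusted p below 0.05 it held 4 members, Lhx1, Zic2, Neurod1 and Pax2, against 3.91% of all genes, each with an FDR of 0.999. Neurod1 lay at 446, 503, 526 and 572 cpm in WT and 452, 468 and 476 cpm in CD cerebellum, and at 14.8, 16.5, 17.2 and 25.1 and 19.6, 20.7, 21.7 and 29.5 cpm in WT and CD cortex, and the genotypes overlapped in both regions. Without the library labelled CD hippocampus of mouse m118, the number of members called stayed at 0 in both fits.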

How the data were processed

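RNA from 8 mice (4 WT, 4 CD) gave 22 libraries, and per the labels and methods the authors made CelSeq2 libraries from dissected tissue, aligned reads with STAR to mm10 and counted 3′ ends per RefSeq transcript with ESAT. The deposited values are whole-number counts per transcript, not normalized, and whether molecular identifiers were collapsed is not given in the sources used here, so counts may include PCR copies. Transcripts were matched to gene symbols by RefSeq id without version: 69288 of 85964 matched, and the unmatched rows held 18.6% of counts. Where a gene had several transcripts, the 1 with the largest sum over libraries was kept, giving 23037 genes and 2760846 to 8858937 counts per library.

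Counts were scaled by TMM and tested with edgeR 4.0.16 (quasi-likelihood, R 4.3.3) on the whole table, with a filter of 5 cpm in at least 2 libraries, and calls needed an FDR below 0.01 together with a fold change over 2 in either direction. Region comparisons and the interaction used all 22 libraries, genotype comparisons the libraries of 1 region, and the comparison over 3 regions limma 3.58.1 with mouse as a block. Alternatives were DESeq2 1.42.0, no filter, sums over distinct transcripts, WT libraries alone, a mouse block and leaving out each library. The fits were tested on simulated data. Libraries of 1 mouse share their number in the labels, and paired libraries deviated together little: the mean correlation of deviations from group means was 0.0828 for cortex and hippocampus (7 mice), 0.0469 for cerebellum and hippocampus (6) and -0.00363 for cerebellum and cortex (7).

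By rule, levels are given for all 54 members, full statistics for up to 10 called members with the largest changes in each region comparison, and genotype values for up to 3 members with the smallest p. Members named because a call changed or because libraries were spread (En1, Tshz2, the cortex and hippocampus spreads) were chosen after their values were seen. The members, their roles and the other lists were chosen with earlier results of these data known. A fold change against a region in which every library held 3 counts or fewer is given as a bound from a floor of 3 counts per library. Bounds cover counting error only. Library pairs of 1 group differed by 6.20 to 19.1 times the sampling variance, so none was counted as a duplicate. Promoter sequences came from RefSeq (GRCm38.p6), and 9 members had none.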

Additional observations from a re-analysis of the deposited data

Results flagged for a closer look

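In 8 of 87 groups of 4 libraries tested over 24 members, 1 library stood apart from the other 3, where chance gives about 1 group in 20, or 4.35 groups. The 87 groups reuse the same libraries over members picked by their changes, so they are not independent. Prox1 was low in the CD cortex of mouse m138, at 31.15 cpm against 47.45 to 48.87 cpm. Mef2c was high in the CD cortex of mouse m242, at 992.6 cpm against 820.0 to 845.2 cpm, and Lhx2 was high in the same library, at 177.0 cpm against 142.9 to 148.6 cpm. The library labelled CD hippocampus of mouse m118 was high in Zbtb20, at 745.1 cpm against 518.1 to 538.5 cpm, and in Bcl11b, at 248.9 cpm against 196.0 to 203.5 cpm. Zbtb20 was low in the WT cerebellum of mouse m240, at 198.0 cpm against 240.4 to 245.6 cpm. Foxp2 was high in the CD hippocampus of mouse m138, at 5.348 cpm against 1.703 to 2.213 cpm. Lhx1 was high in the WT cerebellum of mouse m244, at 14.58 cpm against 9.289 to 10.02 cpm.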

How the results depend on the processing

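For the members named by rule, no direction turned under any alternative in the comparison that named them. Directions of the other members were not followed one by one. The median log2 fold change of the tested members between cortex and hippocampus turned from -0.21 to 0.11 without the WT hippocampus of mouse m244. Each count of members called stayed within 1.5 times its value. Cortex against hippocampus called 16 members, 15 to 17 with 1 library left out and 15 to 17 under the other settings. Both cerebellum comparisons called 39, 38 to 39 with 1 library left out and 37 to 45 otherwise, where the 45 came from dropping the filter. With mouse as a replicate block the 3 region comparisons called 15, 39 and 39 members, the interaction 0, and the 3 regions together 0 without the block, so the pairing moved only the call of Meis2. Leaving out 1 library moved the called values of Ebf3 over hippocampus (2.68) to 3.36 without the WT hippocampus of mouse m244, of Tshz2 over cortex (-4.14) to -3.38 without the CD cortex of mouse m118 and to -4.80 without the CD cerebellum of mouse m190, and of En1 over hippocampus to 5.68 without the CD hippocampus of mouse m138. Without the CD cerebellum of mouse m190, Tshz2 over hippocampus went from -3.83 to -4.49. Genotype comparisons called 0 members in every setting. Without the filter 6, 3 and 10 genes of the whole table were called in hippocampus, cortex and cerebellum and 24 in the interaction, and DESeq2 called 2, 1 and 0. Depth limits Zic5, Barhl2, Lhx5, Dlx2, Dlx5 and Dlx6, which were not tested. The causes of these shifts were not tested.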
